A study of Arabidopsis thaliana with 6 samples.

Results

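The polyubiquitin and constitutive chaperone transcripts of Arabidopsis thaliana were followed through an RNA immunoprecipitation (RIP-seq) of the ASI1 protein. The 8 genes were chosen by their identifiers: the polyubiquitin genes UBQ10 (AT4G05320), UBQ3 (AT5G03240), UBQ4 (AT5G20620), UBQ11 (AT4G05050) and UBQ14 (AT4G02890), the cytosolic HSP70 genes HSC70-1 (AT5G02500) and HSC70-3 (AT3G09440), and the cytosolic HSP90 gene HSP90-2 (AT5G56030). Of these 8 genes, 6 were listed in both deposited tables, which hold 4020 genes for the ASI1 line and 4654 for wild type (WT), with 2323 in common. UBQ4 and HSC70-3 were listed in neither table and their levels are not analysed here. All samples were whole Col-0 seedlings, 14 d of age, grown at 22 °C and crosslinked with 0.5% formaldehyde, and protein with its bound RNA was pulled down by an antibody to the Flag tag. The 6 libraries were 2 ASI1 RIP, 1 ASI1 input, 2 WT RIP and 1 WT input, and an input library holds the total RNA that entered the pull-down. A Flag tag on ASI1, and its absence in WT, were read from the choice of antibody and from how the groups are named; the sources used here give neither the promoter of the transgene nor the number of lines. The comparison asks which RNAs came down with ASI1, and WT shows what comes down without a tag. No label places the RIP replicates in separate cultures, and their spread, on which all p-values rest, may therefore be technical.

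Ubiquitin is a small protein that cells attach to other proteins, through an E1 activating enzyme, E2 conjugating enzymes and E3 ligases, most often to send them to the proteasome. Polyubiquitin genes encode several ubiquitin units in a row, and proteases cut the chain into single ubiquitins after translation. HSC70 proteins bind unfolded stretches of newly made proteins at all times, unlike the HSP70 genes that heat switches on, and HSP90 finishes the folding of client proteins such as kinases and disease resistance receptors. UBQ10 is widely used as a steadily expressed reference gene in Arabidopsis, and its promoter drives many transgenes.

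The polyubiquitin genes consist of near copies of 1 unit of 228 bases, so the coding sequence decides how well their reads can be told apart. In the RefSeq sequence of the TAIR10.1 build, the longest coding sequence held 6 units in UBQ10, 4 in UBQ3, 5 in UBQ4, 3 in UBQ11 and 4 in UBQ14. Every unit of the 5 genes encoded the same 76 residues, with 0 residues differing, while the bases agreed at 77.6% to 97.4% of positions with the first unit of UBQ10. The first units of the 4 listed genes are shown because they carry this contrast, 5′ to 3′ on the coding strand. Capitals mark bases that differ from the first unit of UBQ10, which lies at chr4:2718559-2718786 on the plus strand. The others lie on the minus strand, at chr5:772669-772896 for UBQ3, chr4:2588733-2588960 for UBQ11 and chr4:1279437-1279664 for UBQ14.
UBQ10: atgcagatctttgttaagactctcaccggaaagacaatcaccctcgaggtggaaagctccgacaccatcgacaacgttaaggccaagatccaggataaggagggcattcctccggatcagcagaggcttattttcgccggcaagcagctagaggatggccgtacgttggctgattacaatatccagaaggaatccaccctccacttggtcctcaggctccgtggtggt
UBQ3: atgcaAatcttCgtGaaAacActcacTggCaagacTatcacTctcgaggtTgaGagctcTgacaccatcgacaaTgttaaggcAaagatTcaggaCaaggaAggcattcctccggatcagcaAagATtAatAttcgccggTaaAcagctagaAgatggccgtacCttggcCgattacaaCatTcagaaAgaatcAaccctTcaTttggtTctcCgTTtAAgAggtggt
UBQ11: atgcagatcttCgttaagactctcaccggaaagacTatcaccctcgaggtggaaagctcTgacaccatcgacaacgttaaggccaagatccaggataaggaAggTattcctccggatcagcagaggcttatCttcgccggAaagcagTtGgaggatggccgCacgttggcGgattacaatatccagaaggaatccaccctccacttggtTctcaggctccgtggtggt
UBQ14: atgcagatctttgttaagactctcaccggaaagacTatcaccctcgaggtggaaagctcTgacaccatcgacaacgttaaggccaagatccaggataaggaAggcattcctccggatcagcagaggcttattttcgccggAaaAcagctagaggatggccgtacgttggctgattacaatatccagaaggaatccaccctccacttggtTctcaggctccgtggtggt
The first unit of UBQ14 differed from that of UBQ10 at 6 of 228 bases and the first unit of UBQ11 at 12, whereas that of UBQ3 differed at 40 bases.

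**Figure D1:**
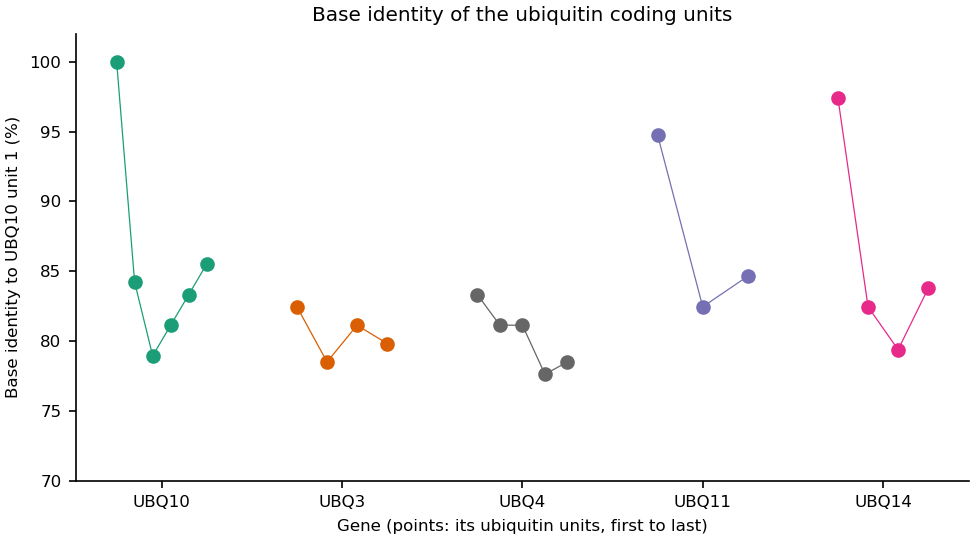
Base identity (%) of each ubiquitin coding unit to the first unit of UBQ10, by gene, with units in order from the first to the last; the axis starts at 70%. The first units of UBQ11 (94.7%) and UBQ14 (97.4%) lie close to UBQ10, and the units of UBQ3 and UBQ4 lie between 77.6% and 83.3%.

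Most of each transcript was distinct from those of other genes. Of all windows of 50 bases in the longest transcript, 7.18% in UBQ10, 11.5% in UBQ11 and 8.55% in UBQ14 occurred in a transcript of another gene, which in each case was another of these 3 genes. In UBQ3 the share was 1.69%, all of it shared with UBQ4. HSC70-1 shared 0% of its windows with any other gene, and its coding sequence was 84.3% identical to that of HSC70-3. HSP90-2 shared 18.8%, with 16.2% of its windows found in HSP90-3 and 10.2% in HSP90-4, its neighbours on chromosome 5. HSP90-2 (22686473 to 22689671, plus strand) has 3 exons in its longest transcript, and HSC70-1 (553745 to 556623, minus strand), also on chromosome 5, has 2. The sources used here state neither read length nor how reads with several matches were treated, so the division of reads among UBQ10, UBQ11 and UBQ14 and among the HSP90 genes is uncertain.

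Ribosomal RNA (rRNA) held 79.9% to 82.5% of the listed counts of RIP libraries and 99.0% to 99.5% of the counts of the inputs. Levels are therefore given as CPM computed over the counts outside the 4 rRNA genes, called CPM outside rRNA. These counts numbered 448561 and 362058 across ASI1 RIP replicates and 23810 in ASI1 input, and 23304 and 103549 across WT RIP replicates and 61644 in WT input. Intervals are 95% Wilson intervals. A count of 0 is given the floor of 3 counts, which lies below the upper end of its Wilson interval. Both cover counting error only. The ASI1 transcript itself (AT5G11470) had 114 and 201 counts across ASI1 RIP replicates and 2.54 in ASI1 input, and was not listed for WT. In CPM outside rRNA its level was 254 and 554 across ASI1 RIP replicates against 107 in ASI1 input. All 5 leaf photosynthesis markers were listed in both tables, against 2 of 5 root markers in the ASI1 table and 1 of 5 in the WT table, 0 of 4 seed storage genes in either, and of 10 heat-inducible genes only DREB2A, in the ASI1 table. In guard cells and phloem, FAMA and SUC2 of 3 markers were listed in both tables. The tissue check thus rests on leaf markers.

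UBQ10 lay above its input in both ASI1 RIP libraries, while both WT RIP libraries lay below theirs. It had 1047 and 953 counts across ASI1 RIP replicates and 21.8 in ASI1 input. In WT it had 15.6 and 125 counts across RIP replicates and 133 in its input. As CPM outside rRNA this came to 2333 and 2632 across ASI1 RIP replicates against 915 (interval 610.3 to 1399) in ASI1 input, and to 669 (423 to 1115) and 1206 in the WT RIP against 2155.5 in WT input. The ASI1 RIP libraries thus did not overlap with the WT RIP libraries, and their means of 2482 ± 211 and 938 ± 380 CPM outside rRNA (SD, n = 2 each) stood 2.65-fold apart. The same separation held for 26.0% of 2319 genes outside rRNA. Both ASI1 RIP libraries above their input with both WT RIP libraries below theirs, as for UBQ10, held for 12.0% of these genes. Both WT RIP libraries lay below their input for 59.3% of them. As a log2 ratio of mean levels UBQ10 stood at 1.40, below the median of 1.75 over 2319 genes. The 2 inputs differed in the direction opposite to the RIP means, with 0.425 times as much UBQ10 in ASI1 input as in WT input. With 1 input library a genotype this difference has no replicate check, and in whole seedlings fewer cells of a type and less RNA per cell cannot be told apart.

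**Figure D2:**
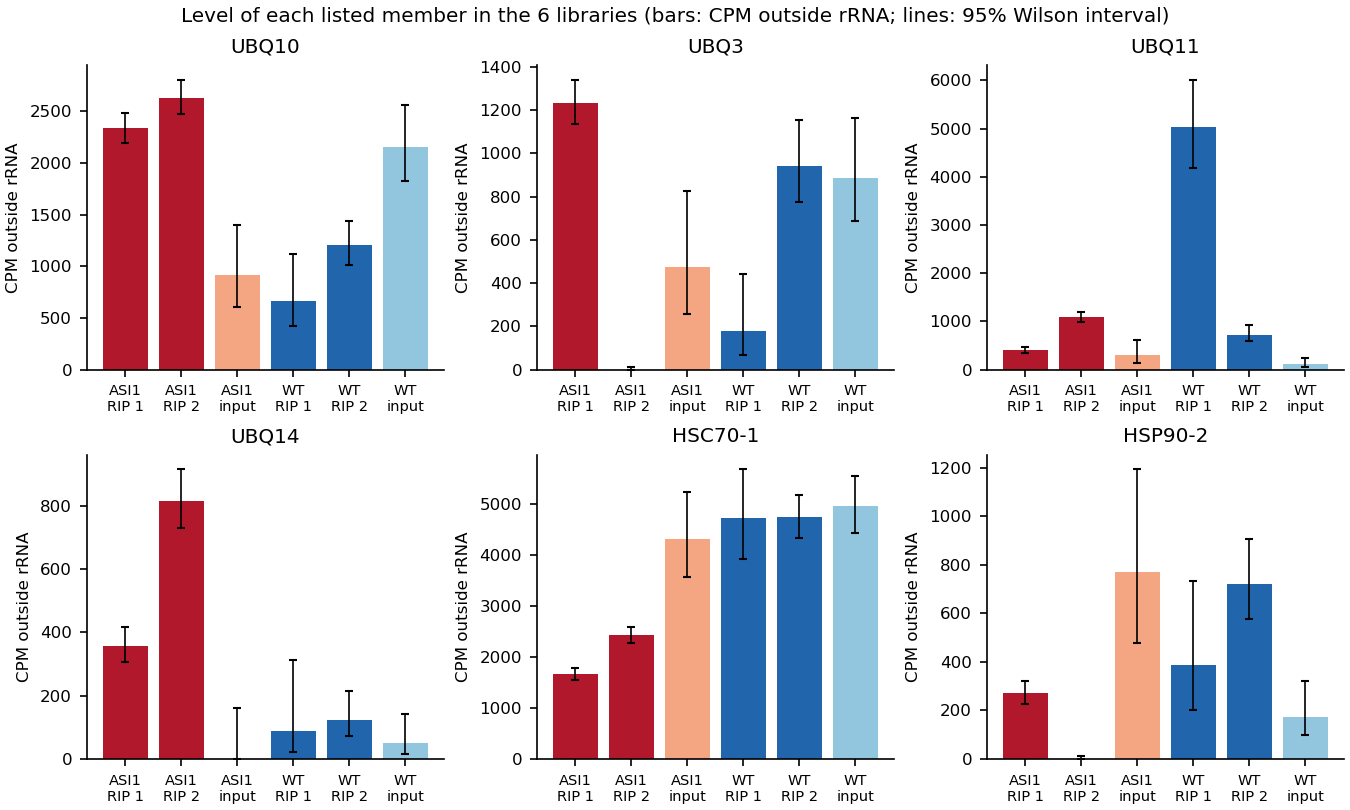
Level of the 6 listed genes in CPM outside rRNA (vertical axes start at 0) in the ASI1 RIP, ASI1 input, WT RIP and WT input libraries; bars are single libraries and lines are 95% Wilson intervals. UBQ10 reached 2333 and 2632 across ASI1 RIP replicates against 669 and 1206 across WT RIP replicates, and HSC70-1 1666 and 2423 against 4726 and 4745.

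UBQ14 was the other polyubiquitin gene whose ASI1 RIP libraries both lay above the WT RIP libraries. It had 160 and 296 counts across ASI1 RIP replicates and 0 in ASI1 input, where the floor of 3 counts corresponds to 126 CPM outside rRNA and the Wilson interval ends at 161. In WT it had 2.08 and 12.6 counts across RIP replicates and 3.09 in its input. The ASI1 RIP libraries stood at 357 and 816 CPM outside rRNA, which is 2.83 and 6.48 times that floor. The interval of the input reaches above the floor, so these folds are not strict minima. The WT RIP libraries stood at 89.2 (interval 23.5 to 313) and 122 against 50.1 (16.6 to 143) in WT input, and these intervals overlapped. The mean ASI1 RIP level was 5.56 times the mean WT RIP level. A gap of this kind, with ASI1 RIP above WT RIP, held for 26.0% of 2319 genes outside rRNA. The interval of ASI1 RIP replicate 1 (306 to 416) also overlapped with that of WT RIP replicate 1, which rests on 2.08 counts.

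UBQ11 and UBQ3 overlapped between the genotypes, and their replicates lay far apart. UBQ11 had 181 and 395 counts across ASI1 RIP replicates against 7.20 in its input, or 403 and 1090.3 CPM outside rRNA against 302 (interval 142 to 607). In WT it had 117 and 75.6 counts across RIP replicates against 7.21 in its input, or 5039 and 729.9 CPM outside rRNA against 117. All 4 RIP libraries lay above their inputs for UBQ11, and the ASI1 and WT RIP libraries overlapped. UBQ3 had 553 and 0 counts across ASI1 RIP replicates against 11.3 in its input, or 1233 and 0 CPM outside rRNA against 475. For its count of 0 in ASI1 RIP replicate 2, the floor of 3 counts corresponds to 8.29 CPM outside rRNA and the Wilson interval ends at 10.6. A count of 0 there was common: of 960 genes above 100 counts in ASI1 RIP replicate 1, 204 (21.3%) stood at 0 in replicate 2. In WT, UBQ3 had 4.16 and 97.6 counts across RIP replicates against 54.6 in its input, or 178 and 943 CPM outside rRNA against 886.

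Summed over UBQ10, UBQ3, UBQ11 and UBQ14, polyubiquitin reached 4326 and 4538 CPM outside rRNA across ASI1 RIP replicates against 1693 in ASI1 input. In WT the sum was 5975 and 3001 across RIP replicates against 3208 in its input. The ASI1 RIP libraries lay inside the range of the WT RIP libraries, so the gap seen for UBQ10 was not present in the sum. The make-up of the sum differed: UBQ10 took 53.9% and 58.0% of these counts across ASI1 RIP replicates and 54.1% in ASI1 input, against 11.2% and 40.2% across WT RIP replicates and 67.2% in WT input. In WT RIP replicate 1, UBQ11 took 84.3%, on 117 of 139 counts.

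**Figure D3:**
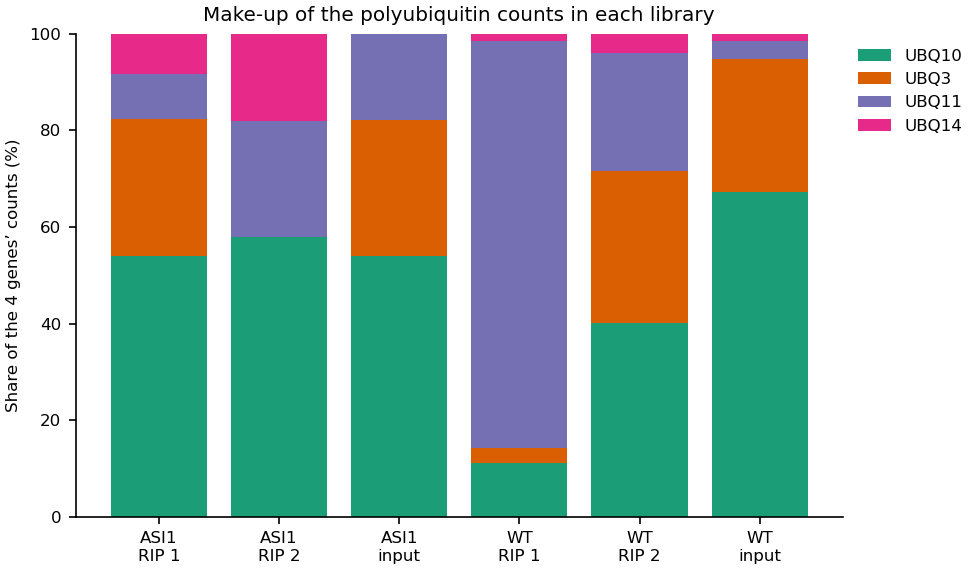
Share (%) of UBQ10, UBQ3, UBQ11 and UBQ14 in their summed counts, 1 bar a library. UBQ10 holds 53.9% and 58.0% across ASI1 RIP replicates, and UBQ11 holds 84.3% in WT RIP replicate 1.

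HSC70-1, a constitutive cytosolic HSP70, was lower in both ASI1 RIP libraries than in their input, as were 31.3% of 2319 genes outside rRNA. It had 747 and 877 counts across ASI1 RIP replicates and 103 in ASI1 input, and 110 and 491 across WT RIP replicates and 306 in WT input. Its level was 1666 (interval 1550 to 1789) and 2423 CPM outside rRNA across ASI1 RIP replicates against 4319 (3569 to 5243) in ASI1 input. In WT the RIP libraries at 4726 and 4745 CPM outside rRNA stood close to the input at 4964, at 0.952 and 0.956 times its level. Both ASI1 RIP libraries lay below the other 4 libraries, and the ASI1 RIP mean of 2045 ± 535 was 0.432 times the WT RIP mean of 4735 ± 12.8 CPM outside rRNA (SD, n = 2 each). Both ASI1 RIP libraries lay below both WT RIP libraries for 4.74% of 2319 genes outside rRNA. That share includes genes at 0 in a WT RIP library, which could not show the pattern. The 5 leaf photosynthesis markers together held 10249 and 6057 CPM outside rRNA across ASI1 RIP replicates and 17946 in ASI1 input, against 10142 and 30945 across WT RIP replicates and 32377 in WT input. Of these 5 markers 0 lay above the median edgeR log2 fold of all genes in ASI1 RIP over WT RIP, which was 1.33. On the same scale, not centred on that median, the markers had a median of -2.46 and HSC70-1 stood at -1.70. Their part in the level of HSC70-1 was not tested.

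HSP90-2 likewise lay below its input in both ASI1 RIP libraries, on small counts. It had 121 and 0 counts across ASI1 RIP replicates against 18.4 in its input, or 270.3 and 0 CPM outside rRNA against 771 (interval 478 to 1195). In WT it had 8.99 and 74.5 counts across RIP replicates against 10.6 in its input, or 386 (203 to 734) and 719.8 CPM outside rRNA against 172 (99.6 to 320). Both ASI1 RIP libraries lay below both WT RIP libraries, although the interval of ASI1 RIP replicate 1 (226 to 322) overlapped with that of WT RIP replicate 1. This order held for 4.74% of 2319 genes outside rRNA, a share that includes genes at 0 in a WT RIP library. A count of 0 in ASI1 RIP replicate 2 was found in 24.0% of the 2319 genes. The ASI1 input held 4.47 times the WT input level.

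**Figure D4:**
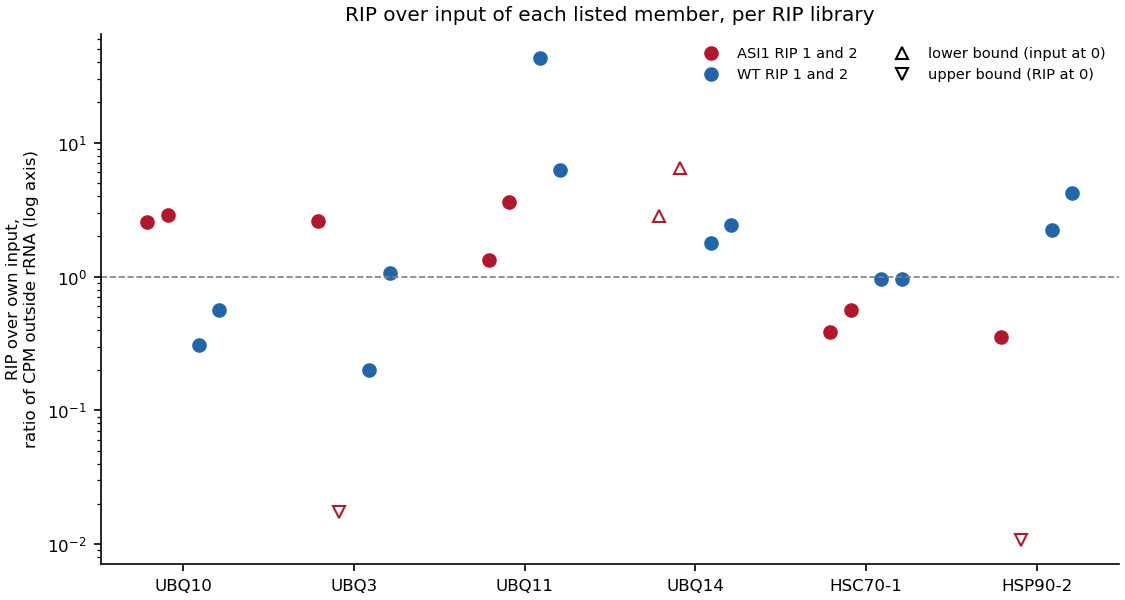
Ratio of each RIP library to the input of its own genotype, in CPM outside rRNA on a log axis, with ASI1 left of WT for each gene. Open triangles are bounds at the floor of 3 counts that is given to a count of 0. UBQ10 lies at 2.55 and 2.87 in ASI1 and at 0.310 and 0.560 in WT.

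The ratio of UBQ10 to HSC70-1 counts within a library does not depend on any scaling. It was 1.40 and 1.09 across ASI1 RIP replicates and 0.212 in ASI1 input, against 0.142 and 0.254 across WT RIP replicates and 0.434 in WT input. Both ASI1 RIP libraries thus held more UBQ10 than HSC70-1 counts, and the other 4 libraries held fewer. This pair was chosen after the values were seen.

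None of these differences passed the test across all genes. In edgeR's quasi-likelihood test with Benjamini-Hochberg adjustment, a call needed an adjusted p below 0.05 together with a log2 fold of 1 or more in either direction. For ASI1 RIP over input 0 of 6 members were called, against 0.0433% of the 2312 genes tested, and for WT RIP over input likewise 0 of 6 against 0.0433%. For the difference in enrichment (ASI1 minus WT) and for ASI1 RIP over WT RIP 0 of 6 were called, with 0% of all genes. In these 4 comparisons, with all 6 libraries fitted together as described, edgeR gave 0 members an unadjusted p under 0.05, and DESeq2 called 0 members, giving no adjusted p to UBQ14 in ASI1 RIP over WT RIP. DESeq2 put UBQ14 in ASI1 RIP over input and UBQ11 in WT RIP over input below 0.05 before adjustment, with adjusted p = 1.00 and 0.998. Some other edgeR fits also put members below 0.05 before adjustment, with adjusted p of 0.569 or more. These were HSC70-1 and UBQ14 in ASI1 RIP over input with the ASI1 table alone, and HSC70-1 in ASI1 RIP over WT RIP without either WT RIP replicate or without the rRNA genes. Without WT RIP replicate 2 they included UBQ11 in WT RIP over input, in ASI1 RIP over WT RIP and in the difference. In the authors' deposited table every member had an FDR of 1, and the smallest p was 0.0776 for UBQ14 in ASI1.

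The spread behind these tests was wide. The common dispersion of 2.19 corresponds to a biological coefficient of variation of 1.48, with 2 residual degrees of freedom. The fitted log2 folds of all genes had a median of 1.12 in ASI1 RIP over input, -0.20 in WT RIP over input, 1.13 in their difference and 1.33 in ASI1 RIP over WT RIP. Relative to these medians, UBQ10 stood at 1.39 (SE 3.18) in ASI1, 0.26 (SE 2.79) in WT and 1.32 (SE 4.02) in the difference, with edgeR adjusted p = 1.00 in each. HSC70-1 stood at -1.09 (SE 2.37) in ASI1, 1.296 (SE 2.49) in WT and -2.19 (SE 3.36) in the difference, again with edgeR adjusted p = 1.00. Before centring its log2 folds were 0.03 in ASI1, 1.10 in WT and -1.07 in the difference. In the difference, again relative to the median, UBQ11 stood at -4.18, HSP90-2 at -5.63, UBQ3 at -0.55 and UBQ14 at 6.31, which was fitted against a count of 0 in ASI1 input and is no bound. Fitted on the WT table alone, UBQ10 and HSC70-1 in WT turned to -2.54 and -1.22 relative to the median of that fit.

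Set directly against the WT RIP, 5 of 6 members had a fitted fold below the median of all genes. Relative to the median of all genes, the edgeR log2 fold was -3.03 (SE 1.99) for HSC70-1, -4.19 (SE 2.86) for HSP90-2, -3.45 (SE 2.41) for UBQ11 and -2.13 (SE 2.62) for UBQ3, with adjusted p = 0.947 to 0.955. UBQ10 stood at -0.54 (SE 2.29) on this scale although its level in CPM outside rRNA was 2.65-fold higher; its fold before centring was 0.79, which became 1.42 with library sizes set to the counts outside rRNA and -0.35 without the rRNA genes. UBQ14 stood at 0.61 (SE 2.67), and at -0.27 without ASI1 RIP replicate 2 and -0.21 without WT RIP replicate 1. In the difference 2 of 6 members lay above the median of all genes. In mean levels the members had a median log2 ratio of -0.54 for ASI1 RIP over WT RIP, against 1.75 over 2319 genes. For RIP over input the medians were 0.84 in ASI1 against -0.05 over 2233 genes, with the ASI1 input of UBQ14 set to the floor of 3 counts. In WT they were 0.50 against -1.40 over 2263 genes. ASI1 RIP over WT RIP and the difference share their RIP libraries, and 863 of 2319 genes stood at 0 in WT RIP replicate 1 and 276 in replicate 2.

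**Figure D5:**
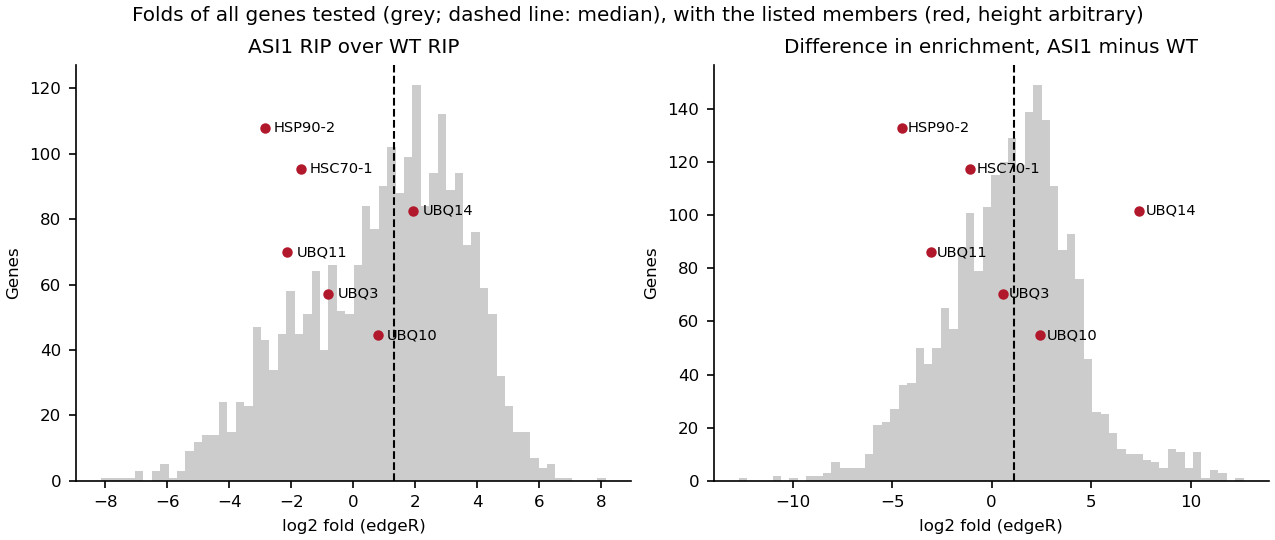
Number of genes by edgeR log2 fold for ASI1 RIP over WT RIP (left) and for the difference in enrichment, ASI1 minus WT (right); the dashed lines are the medians of all 2312 genes, 1.33 and 1.13, and red points are the 6 members at arbitrary heights. UBQ14 lies right of the line in ASI1 RIP over WT RIP, and UBQ14 and UBQ10 do in the difference.

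Counted without a model, both ASI1 RIP libraries lay above both WT RIP libraries for 2 of 6 members, UBQ10 and UBQ14, against 26.0% of 2319 genes outside rRNA. They lay below both for HSC70-1 and HSP90-2, 2 of 6 members, against 4.74% of genes. Both ASI1 RIP libraries exceeded their input for UBQ10, UBQ11 and UBQ14, 3 of 6 members, against 22.0% of genes, and fell short of it for HSC70-1 and HSP90-2, 2 of 6 against 31.3%. Both WT RIP libraries exceeded their input for UBQ11, UBQ14 and HSP90-2, 3 of 6 members, against 10% of genes, and fell short of it for UBQ10 and HSC70-1, 2 of 6 against 59.3%. UBQ10 alone, 1 of 6 members, lay above its input in both ASI1 RIP libraries and below it in both WT RIP libraries, against 12.0% of genes. HSP90-2 alone, 1 of 6, lay below in ASI1 and above in WT, against 2.85% of genes. A gene at 0 in a WT RIP library cannot lie lower in ASI1 RIP, nor exceed its input in both WT RIP libraries. This held for 863 of 2319 genes in WT RIP replicate 1 and 276 in replicate 2, but for none of the 6 members. The shares of 4.74%, 10% and 2.85% therefore include genes that could not show these patterns. Likewise, a gene at 0 in an ASI1 RIP library cannot lie above WT RIP, or above its input, in both ASI1 RIP libraries. Such genes numbered 395 in ASI1 RIP replicate 1 and 557 in replicate 2, with UBQ3 and HSP90-2 among the latter. The shares of 26.0%, 22.0% and 12.0% include them.

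Levels were compared between genes as CPM outside rRNA per kb of the longest transcript. In the ASI1 RIP libraries UBQ10 led, with 1150.5 and 1298 CPM per kb. HSC70-1 with 652 and 948 CPM per kb overlapped with UBQ11 at 302 and 815 CPM per kb, and UBQ11 overlapped with UBQ14 at 238 and 545 CPM per kb. UBQ3 ranked second in replicate 1 with 776 CPM per kb and was at 0 in replicate 2, as was HSP90-2, which had 97.0 CPM per kb in replicate 1. In the ASI1 input HSC70-1 led with 1690.4 CPM per kb, ahead of UBQ10 with 451 CPM per kb. In the WT RIP libraries HSC70-1 had 1850 and 1857 CPM per kb, and UBQ11 lay on either side of it with 3769 and 546 CPM per kb. UBQ10 had 330 and 595 CPM per kb there, overlapping with UBQ3 at 112 and 593 CPM per kb. In the WT input HSC70-1 led with 1943 CPM per kb, followed by UBQ10 with 1063 and UBQ3 with 557 CPM per kb. HSC70-1 thus ranked first in both inputs, and UBQ10 ranked first in both ASI1 RIP libraries.

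HSC70-1 and UBQ10, the 2 members with the highest mean level, were set against all other genes by the root mean square difference of gene-centred log2(CPM outside rRNA + 10) over the 6 libraries. The profile most like HSC70-1 was that of LHB1B2, a light-harvesting chlorophyll a/b binding protein gene, at 0.41, followed by AT5G12350 at 0.50, a gene at 0 to 44.6 CPM outside rRNA whose profile rests heavily on the added 10, and the plasma membrane proton pump gene HA2 at 0.52, against a median of 1.91 over 2313 genes. LHB1B2 had 1706 and 975 CPM outside rRNA across ASI1 RIP replicates and 3253 in ASI1 input, against 3801 and 3037 across WT RIP replicates and 3796 in WT input. Those most like UBQ10 were OASA1, a cysteine synthesis gene, at 0.29, the vacuolar proton pump gene AVP1 at 0.35 and AT5G58420 at 0.36, against a median of 1.74. These profiles rest on few counts in the smaller libraries. OASA1 and AT5G58420 each had 1.04 counts in WT RIP replicate 1 and 2.06 in ASI1 input, and AVP1 had 3.12 in WT RIP replicate 1. AVP1 had 429 and 502 CPM outside rRNA across ASI1 RIP replicates and 259 in ASI1 input, against 134 and 253 across WT RIP replicates and 267 in WT input. Between HSC70-1 and UBQ10 the same measure was 1.21. It was 2.13 between UBQ10 and UBQ11, and highest among the members between UBQ14 and HSP90-2, at 3.82.

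The related genes of the ubiquitin and chaperone systems were mostly low, and edgeR called 0 of them in any of the 4 comparisons, with 0 at an unadjusted p under 0.05 and 0 called by DESeq2. Of 12 other ubiquitin and RUB genes, 4 were tested, with a median log2 fold of 1.51 in ASI1 RIP over WT RIP. This and the other list medians are not centred and stand against 1.33 over all genes. UBQ5 and UBQ1, which fuse 1 ubiquitin to a ribosomal protein, were the highest. UBQ5 had 520 and 225 CPM outside rRNA across ASI1 RIP replicates and 216 in ASI1 input, against 134 and 923 across WT RIP replicates and 83.6 in WT input. UBQ1 had 291 and 299.97 CPM outside rRNA against 216 in ASI1, and 178 and 71.0 against 66.9 in WT. The RIP replicates of the genotypes overlapped for UBQ5 and did not for UBQ1, which was not called. Such a separation, with ASI1 RIP above WT RIP, held for 26.0% of all genes. The WT RIP levels of UBQ1 rest on 4.16 and 7.35 counts. At 4.16 counts in WT RIP replicate 1 the Wilson interval runs from 66.8 to 441 CPM outside rRNA, which spans both ASI1 RIP levels.

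Among 15 other HSP70 genes, 5 were tested, with a median of 1.60 in the same comparison, above that of all genes. BIP1, an HSP70 of the endoplasmic reticulum, had 200.4 and 839 CPM outside rRNA across ASI1 RIP replicates against 376 in its input, and 44.6 and 598 against 207 in WT. HSC70-2, a close relative of HSC70-1 with 86.9% coding identity, was listed for WT alone, at 357 and 30.4 CPM outside rRNA across RIP replicates against 16.7 in its input. Of 6 other HSP90 genes 3 were tested, with a median of 0.30, below that of all genes. HSP90-3 had 0 and 271 CPM outside rRNA across ASI1 RIP replicates against 352 in its input, and 194 and 547 against 143 in WT. The count of 0 thus fell on replicate 1 in HSP90-3 and on replicate 2 in HSP90-2, genes whose coding sequences were 91.9% identical. HSP90-7, the HSP90 of the endoplasmic reticulum, had 140 and 421 CPM outside rRNA against 561 in ASI1, and 178 and 50.7 against 1169.9 in WT.

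Of 13 co-chaperones, which help HSP70 and HSP90 with their clients, 3 were tested, with a median of 0.10, below that of all genes. ROF1, listed for WT alone, had 89.2 and 1217 CPM outside rRNA across RIP replicates against 134 in its input. SGT1B, an HSP90 partner in disease resistance listed for ASI1 alone, had 0 and 294 CPM outside rRNA against 86.4. Of 11 E1 and E2 enzymes 4 were tested, with a median of 0.79, also below it. The E1 gene UBA1 had 282 and 176 CPM outside rRNA across ASI1 RIP replicates against 302 in its input, and 3433 and 20.3 against 368 in WT. The E2 gene UBC10 had 154 and 254 CPM outside rRNA against 173 in ASI1, and 89.2 and 81.1 against 184 in WT. Of 17 proteasome subunits 3 were tested, with a median of 0.74, also below it. RPT2A had 2.33 and 274 CPM outside rRNA across ASI1 RIP replicates against 86.4 in its input, and 44.6 and 20.3 against 33.4 in WT. PBA1 had 179 and 0 CPM outside rRNA against 43.2 in ASI1, and 0 and 50.7 against 66.9 in WT. No heat-inducible gene was listed for both genotypes, so 0 of 10 were tested. DREB2A, a transcription factor of the heat and drought response listed for ASI1 alone, had 0 and 262 CPM outside rRNA across RIP replicates against 86.4 in its input.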

How the data were processed

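Per the file headers, the authors' tables, one for each genotype, hold expected counts (estimates that can be fractional) of 1 input library and 2 RIP libraries. The deposited CPM divide these by library totals over listed genes. The authors also give a log2 fold change for RIP against input, with a p-value and an FDR, per the file headers. The submitters' processing notes name STAR 2.6.0c, Salmon 0.10.2 and edgeR; the sources used here give no roles, build or strand setting. No listed gene had fewer than 2 libraries above 0.

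Expected counts were rounded and all 6 libraries fitted together with edgeR 4.0.16 (glmQLFit, glmQLFTest) in R 4.3.3, over the 2323 shared genes, with TMM scaling on listed totals and filterByExpr, which kept 2312. DESeq2 1.42.0 was an alternative. Scripts were tested on simulated data. Identifiers (100% matched) were annotated from RefSeq TAIR10.1. Named genes were all members, the 3 genes most like each of the 2 highest members, and the 2 highest genes of each pathway list; UBQ10 against HSC70-1 was added after the values were seen. Members and lists were chosen with earlier results of these data known. Python 3.11.15, numpy 2.4.6, pandas 2.3.3, scipy 1.17.1, Biopython 1.88 and matplotlib 3.10.9 served for the rest.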

Additional observations from a re-analysis of the deposited data

Results flagged for a closer look

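For UBQ10 the RIP libraries of the genotypes lay on opposite sides of their inputs. The mean ASI1 RIP level was 2.71 times the ASI1 input, with both libraries above it, and the mean WT RIP level was 0.435 times the WT input, with both libraries below it. The same pattern held for 12.0% of genes, a share that includes genes at 0 in an ASI1 RIP library, which could not show it. For HSP90-2 the order was turned round, at 0.175 times the input in ASI1 and 3.21 times in WT, a pattern that held for 2.85% of genes. Genes at 0 in a WT RIP library could not show it. The ASI1 value averages 0.351 and a count of 0 in ASI1 RIP replicate 2. In WT, RIP replicate 1 had 8.99 counts against 10.6 in the input, with overlapping Wilson intervals. HSP90-2 also shared 18.8% of its windows of 50 bases with other genes. In edgeR the difference between genotypes had an adjusted p of 1.00 for both genes, and each ratio rests on 1 input library a genotype.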

How the results depend on the processing

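No member was called under any alternative run, and 215 alternative values of members' log2 folds relative to the median of all genes kept their direction, though not always their size. HSC70-1 in ASI1 RIP over input was -0.12 with the replicate block against -1.09 without it, and UBQ11 there was 0.19 without ASI1 RIP replicate 2 against 1.38. In the difference UBQ10 was 0.43 without WT RIP replicate 1 against 1.32, and HSP90-2 was -11.85 without ASI1 RIP replicate 1 against -5.63. Some runs left the libraries compared unchanged and had little room to turn a value. Without WT RIP replicate 1 or 2, UBQ10 in ASI1 RIP over input was 1.39 and 1.37 against 1.39. The 215 values include such runs. The other 13 values turned round. In ASI1 RIP over input UBQ3 was -0.25 with the replicate block, -0.0056 with the ASI1 table fitted alone, and -8.66 to 1.15 with single RIP replicates left out. In WT RIP over input, with the WT table fitted alone, UBQ3 was -2.37, UBQ10 -2.54, HSC70-1 -1.22 and UBQ14 -0.28, and with a replicate left out UBQ3 was -0.60 (without WT RIP replicate 2) to 1.83. In the difference UBQ3 was -8.86 to 0.69 with a replicate left out, and positive without ASI1 RIP replicate 2 (0.69) and without WT RIP replicate 2 (0.53). In ASI1 RIP over WT RIP UBQ10 was 0.58 with the replicate block, and UBQ14 was -0.27 to 1.32 with a replicate left out, negative without ASI1 RIP replicate 2 (-0.27) and without WT RIP replicate 1 (-0.21). The cause was not tested. The differences between RIP replicates 1 and 2 had a correlation of -0.0019 between ASI1 and WT across 2319 genes. With 863 of these genes at 0 in WT RIP replicate 1, this cannot decide whether the replicate numbers pair the libraries. The replicate block left the counts of called genes as they were. Over all genes, ASI1 RIP over input had 1 called gene, which was lower, against 2 with DESeq2 (both higher), 2 with sizes set to the counts outside rRNA (both lower), 13 with the ASI1 table alone (2 higher, 11 lower), 3 without the rRNA genes (1 higher, 2 lower; added after the data were seen) and 1 to 10 (all lower) with a replicate left out. WT RIP over input had 1, which was lower, against 1 higher without the rRNA genes, 0 with DESeq2, 0 with the WT table alone, and 1 to 4 with a replicate left out (3 of the 4 higher, without WT RIP replicate 1). The difference had 0 in edgeR (1 gene at an unadjusted p under 0.05) and 0 to 1 with a replicate left out; ASI1 RIP over WT RIP had 0 (18 genes), 6 with DESeq2 (all lower) and 0 to 3 with a replicate left out. WT RIP replicate 1 and the ASI1 input held the fewest counts outside rRNA.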
